A study of Mus musculus with 16 samples.

Results

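The granzyme, perforin and *Nkg7* genes are the toolkit of the cytotoxic granule, and their RNA was followed in CD4+ and CD8+ T cells that had infiltrated mouse melanomas. The 10 genes are the granzymes *Gzma*, *Gzmb*, *Gzmc*, *Gzmd*, *Gzme*, *Gzmf*, *Gzmk* and *Gzmm*, the pore-forming protein gene *Prf1* and the granule membrane gene *Nkg7*. They were chosen by symbol, each matched 1 row of the count table, and they are 10 of its 55450 genes. Tumor-infiltrating lymphocytes (TILs) came from subcutaneous tumors of B16F10, a melanoma line of C57BL/6 origin. The hosts were wild-type (WT) C57BL/6J mice and *Sirt2*-/- mice that carry a germline deletion, so that every host cell of the tumor lacked SIRT2, a mainly cytoplasmic deacetylase, and not the T cells alone. The submitters labelled 4 groups of 4 libraries each, namely CD4+ TILs and CD8+ TILs of WT mice and of *Sirt2*-/- mice, and no group carried a further treatment. The study's methods give purification of TILs on beads against CD3ε, sequencing of total RNA after removal of ribosomal RNA, and controls matched by age and sex, but not how CD4+ and CD8+ cells were parted for sequencing. No label ties a library to an animal, so that p-values measure the spread between these libraries.

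Cytotoxic lymphocytes store granzymes, which are serine proteases, together with perforin in secretory granules. On contact with a target cell the granules fuse with the membrane, perforin opens it, and granzymes enter and cleave proteins whose loss kills the cell. Granzyme B cuts after aspartate, as caspases do, and also cuts BID and caspases, whereas granzymes A and K cut after basic residues. CD8+ T cells and NK cells are the main carriers of this program, and activated CD4+ T cells, regulatory T cells included, can make granzyme B.

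In GRCm38 the genes lie on 4 chromosomes. *Gzme*, *Gzmd*, *Gzmf*, *Gzmc* and *Gzmb* follow each other on the minus strand of chromosome 14, from 56117626, where *Gzme* starts, to 56262260, where *Gzmb* ends, with gaps of 8930, 72654, 20023 and 24181 bases between neighbors in this list. *Gzma* (113093825 to 113100981) and *Gzmk* (113171608 to 113225908) are 70.6 kb apart on chromosome 13. *Prf1* (61297833 to 61304680) and *Gzmm* (79689020 to 79695261) are both on chromosome 10, 18384.3 kb apart. *Nkg7* (43437073 to 43438249) is on chromosome 7, the chromosome of *Sirt2*, and lies 14.6 Mb from it.

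The cluster on chromosome 14 holds genes that differed widely in level and in the contrast of CD8+ with CD4+ TILs, so the RefSeq sequence just upstream of their starts is given for 4 of them, with that of *Prf1* for comparison. Each window has 250 bases of GRCm38.p6 that end at the base before the RefSeq transcript start, and is written along the strand of its gene. The windows are chr14:56262335-56262584 for *Gzmb*, chr14:56234658-56234907 for *Gzmc*, chr14:56132594-56132843 for *Gzmd* and chr14:56211408-56211657 for *Gzmf*, all on the minus strand, and chr10:61297586-61297835 on the plus strand for *Prf1*. Capitals mark the letters TGTGGT, or ACCACA where they are read on the other strand, which RUNX transcription factors are known to bind.
Gzmb: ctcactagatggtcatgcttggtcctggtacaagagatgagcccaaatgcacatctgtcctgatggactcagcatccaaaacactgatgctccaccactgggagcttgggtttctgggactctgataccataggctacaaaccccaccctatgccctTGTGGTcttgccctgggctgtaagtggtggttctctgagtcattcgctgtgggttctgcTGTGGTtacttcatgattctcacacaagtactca
Gzmc: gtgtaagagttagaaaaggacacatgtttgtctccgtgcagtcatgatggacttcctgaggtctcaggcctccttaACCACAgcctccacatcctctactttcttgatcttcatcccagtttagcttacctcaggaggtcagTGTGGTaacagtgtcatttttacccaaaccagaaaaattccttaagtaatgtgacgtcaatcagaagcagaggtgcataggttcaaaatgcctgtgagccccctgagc
Gzmd: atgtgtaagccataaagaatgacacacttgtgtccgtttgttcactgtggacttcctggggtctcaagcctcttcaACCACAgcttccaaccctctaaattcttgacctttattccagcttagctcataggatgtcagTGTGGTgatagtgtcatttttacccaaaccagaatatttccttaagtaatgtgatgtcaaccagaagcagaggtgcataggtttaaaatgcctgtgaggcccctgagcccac
Gzmf: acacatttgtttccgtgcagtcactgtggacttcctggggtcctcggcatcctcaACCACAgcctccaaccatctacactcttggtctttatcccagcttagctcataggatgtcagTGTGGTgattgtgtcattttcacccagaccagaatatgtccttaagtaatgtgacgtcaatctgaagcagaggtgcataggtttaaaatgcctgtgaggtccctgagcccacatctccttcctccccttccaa
Prf1: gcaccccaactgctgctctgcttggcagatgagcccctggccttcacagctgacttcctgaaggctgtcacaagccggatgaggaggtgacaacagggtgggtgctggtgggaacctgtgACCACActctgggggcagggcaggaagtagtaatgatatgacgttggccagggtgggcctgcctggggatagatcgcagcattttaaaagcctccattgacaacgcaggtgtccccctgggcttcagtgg
All 10 genes had a RefSeq window, and *Gzmm* had 2, so that there were 11. These letters were in 9 of the 11 windows, those of all genes but *Gzmk* and 1 of the 2 of *Gzmm*, against 14.05% of 32851 windows of the same length over all genes. *Gzmb*, *Gzmc*, *Gzmd*, *Gzme* and *Gzmf* each held them at 2 positions. In *Gzmc*, *Gzmd* and *Gzme* these lay at nearly the same distance from the start, for example 174 and 112 bases upstream in *Gzmd* and 175 and 113 in *Gzme*. The genes of this cluster are related copies, so their windows are not independent of each other. The T-box letters TCACAC were in 4 of the 11 windows (*Gzmb*, *Gzmk*, the other window of *Gzmm*, and *Nkg7*) against 12.3% of all windows, the AP-1 letters TGANTCA in that of *Gzmb* against 6.75%, and the cAMP response letters TGACGTCA in 2 (*Gzmc* and *Gzmf*) against 1.55%. Both strands were searched, and a match is a run of letters, not a measured binding site.

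The members of the cluster are also alike in their coding sequence, which bears on how surely a read can be given to 1 of them. Over the coding sequence, *Gzmd* and *Gzme* were identical at 93.3% of aligned bases, *Gzme* and *Gzmf* at 85.3%, *Gzmd* and *Gzmf* at 83.6% and *Gzmb* and *Gzmc* at 76.2%. The 120 bases from the start codon, shown with every base that differs from *Gzmd* in capitals, differed at 6 positions in *Gzme* and at 12 in *Gzmf*.
Gzmd: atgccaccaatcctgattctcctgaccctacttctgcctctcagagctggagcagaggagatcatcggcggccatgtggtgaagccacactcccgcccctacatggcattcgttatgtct
Gzme: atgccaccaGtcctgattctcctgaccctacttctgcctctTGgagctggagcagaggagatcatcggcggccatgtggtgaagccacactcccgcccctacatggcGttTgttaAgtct
Gzmf: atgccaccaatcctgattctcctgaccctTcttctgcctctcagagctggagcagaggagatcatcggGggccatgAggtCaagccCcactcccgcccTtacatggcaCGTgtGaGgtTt
No stretch of 100 bases, the read length, was shared between transcripts of any pair of the 8 granzymes. *Gzmd* and *Gzmg*, a neighbor outside the 10, shared 0.23% of the windows of *Gzmd*. How the counting treated reads that fit several genes is not given in the sources used here, so the low counts of *Gzmd* and *Gzme* are less certain than those of the other genes.

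Total counts ranged from 28000949 to 62407851 per library. In 3 libraries fewer than 15000 genes had a count, *Sirt2*-/- CD4+ replicate 4 with 8169, WT CD4+ replicate 1 with 12587 and WT CD8+ replicate 1 with 14411, against 17730 to 22138 elsewhere, and results that rest on them are also given without them. Levels are given as CPM, the count of a gene scaled to the size of its library. *Sirt2* had 6.52 to 10.3 CPM in *Sirt2*-/- CD8+ libraries and 33.4 to 51.5 CPM in WT ones, and 0 to 12.2 against 40.7 to 75.6 CPM in CD4+ libraries. *Cd8a* and *Cd8b1* summed to 1462 to 1713 CPM in WT and 1619 to 2046 in *Sirt2*-/- CD8+ TILs, and to 14.04 to 24.9 and 22.2 to 74.9 in CD4+ TILs. *Cd4* and *Cd40lg* summed to 384 to 663 CPM in CD4+ and to at most 5.36 CPM in CD8+ TILs. Every CD4+ library had *Cd4*, but *Cd40lg* was at 0 in *Sirt2*-/- CD4+ replicate 4. Summed CPM of 4 Y-linked genes was 6.26 to 297 in the WT and at most 0.452 in the *Sirt2*-/- libraries. This goes against matching by sex, and what goes with these genes cannot be told apart from genotype here. The sum also varied within WT. It was 297 in CD4+ and 271 in CD8+ replicate 2, and 59.0 and 57.9 in replicate 1. In WT replicates 3 and 4 it was 6.26 to 15.4.

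In every group the RNA of the 10 genes was mostly that of *Gzmb* and *Nkg7*. Levels of different genes are set side by side as CPM per kilobase of exon, which corrects for gene length. In WT CD8+ TILs the order by median was *Gzmb* (261), *Nkg7* (224), *Gzmk* (47.96), *Prf1* (44.1), *Gzma* (13.003), *Gzmf* (5.10), *Gzmc* (3.71), *Gzmm* (3.10), *Gzmd* (0.651) and *Gzme* (0.228). The ranges of neighbors in this order overlapped, except those of *Nkg7* (184 to 245) and *Gzmk* (38.6 to 77.5) and those of *Prf1* (38.5 to 47.1) and *Gzma* (10.01 to 19.6). *Gzmb* alone was 62.5% of the summed CPM per kilobase in the median WT CD4+ library and 78.8% in the median *Sirt2*-/- CD4+ library, but 42.4% and 46.99% in WT and *Sirt2*-/- CD8+ TILs. The share of *Prf1* went the other way, from 2.15% and 2.23% in CD4+ to 7.70% and 7.24% in CD8+ TILs. The share of *Gzmb* ranged over 21.6% to 46.1% in WT and over 31.8% to 67.8% in *Sirt2*-/- CD8+ libraries, and over 57.2% to 62.9% in WT and 64.9% to 90.3% in *Sirt2*-/- CD4+ libraries. The WT ranges did not overlap and the *Sirt2*-/- ranges did.

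**Figure D1:**
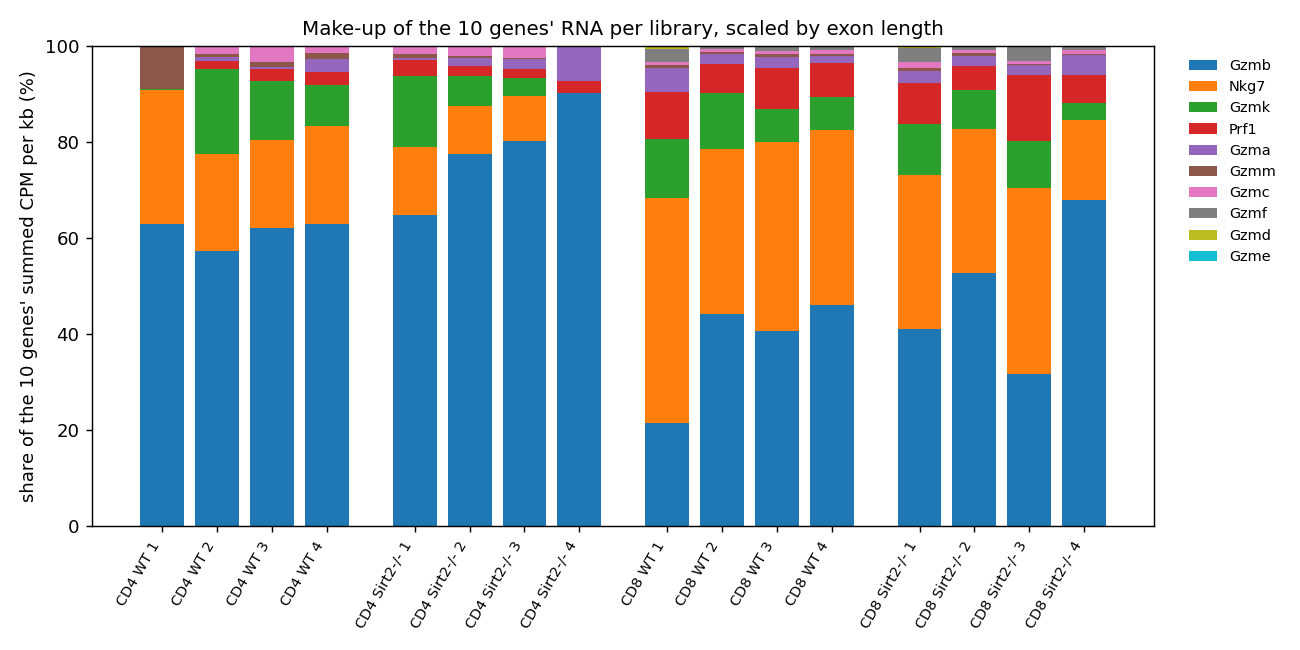
Share of each of the 10 genes in their summed CPM per kilobase of exon (y axis, percent) in each of the 16 libraries (x axis), stacked from *Gzmb* at the bottom. *Gzmb* and *Nkg7* fill most of every bar, *Prf1* takes a wider band in CD8+ than in CD4+ libraries, and *Nkg7* is nearly missing from *Sirt2*-/- CD4+ replicate 4.

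The contrast of CD8+ with CD4+ TILs asks which parts of the granule program set the cell types apart within these tumors. In WT mice *Prf1*, *Nkg7*, *Gzmf* and *Gzmd* were higher in CD8+ TILs and no gene of the 10 was lower. Each library was scaled by the TMM method of edgeR, edgeR's quasi-likelihood test was adjusted by Benjamini–Hochberg over all genes tested, a gene counted as called where that adjusted p was below 0.05, and 9 of the 10 genes passed the filter on low counts, all but *Gzme*. Among the 14892 genes tested, 4.89% were called higher and 6.96% lower. *Gzmd* and *Gzmf* passed the filter through their CD8+ libraries alone, so the count of 4 describes the list and supports nothing beyond each gene. In bulk RNA, fewer cells that express a gene and less of its RNA per cell cannot be told apart.

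*Prf1* was higher in CD8+ than in CD4+ TILs of both genotypes. In WT CD8+ replicates 1 to 4 *Prf1* had 99.5, 107, 122 and 121 CPM, and in the WT CD4+ replicates 0, 10.7, 10.7 and 10.6 CPM. The CD8+ libraries lay within 1.22-fold of each other, all were above all CD4+ libraries, and the 0 was in the library with 12587 genes detected, where it allows up to 0.0998 CPM (3 counts, counting error only). The log2 fold change was 3.71 (SE 0.85, edgeR adjusted p = 0.016), and 3.44 (SE 0.13) without the libraries with few genes. This call was lost with no filter on low counts (edgeR adjusted p = 0.13), with the replicate number as a block (0.060) and without WT CD8+ replicate 4 (0.053). In mice without SIRT2, *Prf1* had 139, 107, 262 and 203 CPM in CD8+ and 14.3, 13.6, 23.2 and 36.8 CPM in CD4+ libraries, again without overlap. It was the 1 gene of the 10 called in that genotype (log2 fold change 3.01, SE 0.41, edgeR adjusted p = 0.0096), where 0.918% of 15787 genes were called higher and 1.32% lower. With all 16 libraries in 1 model its adjusted p was 0.057.

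*Nkg7*, which encodes a granule membrane protein needed for granule release, followed the same order. It had 168, 209, 200.2 and 224 CPM in WT CD8+ and 27.8, 44.8, 27.1 and 28.3 CPM in WT CD4+ replicates, a log2 fold change of 2.57 (SE 0.19, edgeR adjusted p = 2.2e-05, rank 25 of all genes tested). With all 16 libraries in 1 model the adjusted p was 0.12. Without SIRT2 the values were 182, 223, 261 and 206 CPM in CD8+ and 20.6, 22.9, 39.3 and 0.0179 CPM in CD4+ replicates, the last of these being 1 count. All CD8+ libraries were above all CD4+ libraries, but the gene was not called (log2 fold change 3.38, SE 1.23, edgeR adjusted p = 0.28). Without *Sirt2*-/- CD4+ replicate 4, the library with 8169 genes detected, it was called (log2 fold change 2.95, SE 0.24, edgeR adjusted p = 8.7e-05).

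The chromosome 14 cluster split into genes found in both cell types and genes nearly restricted to CD8+ libraries. *Gzmf* had 321, 118, 187 and 152 counts (9.71, 3.12, 5.08 and 4.29 CPM) in WT CD8+ replicates and 0, 0, 2 and 0 counts in WT CD4+ replicates. Over the pooled counts the ratio was 428 (95% exact binomial interval 118 to 3542, counting error only), and the gene was called (edgeR adjusted p = 0.0020). *Gzmd* had 90, 29, 18 and 12 counts in WT CD8+ and 0 in each WT CD4+ replicate. Over the pooled counts that is at least 54.7-fold higher by a floor of 3 counts over the CD4+ group (counting error only). This bound leans on WT CD8+ replicate 1, with 90 counts, and takes in WT CD4+ replicate 1, both libraries with few genes. *Gzmd* was called (edgeR adjusted p = 0.026). Its call was lost with the replicate block (adjusted p = 0.10) and in 6 of the 8 fits that left out 1 library each (adjusted p of 0.056 to 0.070 in those 6), and DESeq2 gave it no adjusted p. *Gzme*, not tested, had 0, 16, 6 and 9 counts in WT CD8+ and 40, 6, 17 and 29 in *Sirt2*-/- CD8+ replicates and 0 in all 8 CD4+ libraries, which is at least 11.4-fold higher in WT and at least 30.5-fold higher in *Sirt2*-/- by the same floor. Outside the 10, *Gzmg* had 5 counts in 1 WT and 7 over 2 *Sirt2*-/- CD8+ libraries and 0 in CD4+ libraries, and *Gzmn* had 0 in all 16.

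In *Sirt2*-/- mice *Gzmf* and *Gzmd* had low counts in some CD4+ libraries. *Gzmf* had 798, 226, 963 and 394 counts in CD8+ and 14, 25, 10 and 0 in CD4+ replicates, with no overlap in CPM. It was not called with all libraries (log2 fold change 5.43, SE 1.42, edgeR adjusted p = 0.11) and was called without *Sirt2*-/- CD4+ replicate 4 (4.997, SE 0.58, adjusted p = 2.7e-04). *Gzmd* had 99, 45, 72 and 78 counts in CD8+ replicates and 0, 0, 31 and 0 in CD4+ replicates, so the CD4+ counts were all in replicate 3 (log2 fold change 3.11, SE 1.78, adjusted p = 0.64).

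*Gzmb* and *Gzmc*, at the other end of the cluster, were made in both cell types. *Gzmb* had 122, 423, 326 and 447 CPM in WT CD8+ and 98.1, 199, 144 and 137 CPM in WT CD4+ replicates. The highest CD4+ library was above the lowest CD8+ library, which was the CD8+ library with few genes, and the difference did not pass (log2 fold change 1.11, SE 0.35, edgeR adjusted p = 0.064). It passed without the libraries with few genes (1.31, SE 0.16, adjusted p = 2.3e-04), with the replicate block (0.034), with DESeq2 (0.0034) and with limma-voom (1.0e-04). The *Sirt2*-/- values were 366, 621, 338 and 1319 CPM in CD8+ and 149, 279, 525 and 785 CPM in CD4+ replicates, which overlapped widely. The log2 fold change was 0.60 (SE 0.58, edgeR adjusted p = 0.91), and 1.03 (SE 0.62, adjusted p = 0.29) without *Sirt2*-/- CD4+ replicate 4. *Gzmc* had 2.12, 3.52, 3.12 and 4.82 CPM in WT CD8+ and 0, 3.82, 4.70 and 1.96 CPM in WT CD4+ replicates, and its fold changes between cell types were small against their error (log2 0.28, SE 1.14, in WT and 0.86, SE 1.43, in *Sirt2*-/-). In WT the sign of *Gzmc* turned without WT CD4+ replicate 1 and with limma-voom.

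*Cd8a* and *Cd8b1*, which mark CD8+ T cells, were measured in every CD4+ library beside the granule genes. Their summed level in a CD4+ library was 0.836% to 1.48% of the median CD8+ library of that genotype in WT and 1.29% to 4.33% in *Sirt2*-/-. On the same scale *Gzmb* in CD4+ TILs stood at 26.2% to 53.1% in WT and at 30.2% to 159% in *Sirt2*-/-, well above the CD8 genes in every library. *Prf1* stood at 0% to 9.44% and 7.97% to 21.5%, above the CD8 genes in every CD4+ library but WT replicate 1, where it was at 0. *Gzmf* stood at 0% to 0.951% and 0% to 4.89%, below the CD8 genes in all WT libraries and in *Sirt2*-/- replicates 3 and 4, and above them in *Sirt2*-/- replicates 1 and 2. The regulatory T cell genes *Foxp3*, *Ikzf2*, *Il2ra* and *Ctla4* summed to 1525 to 2528 CPM in WT and 1153 to 2439.9 CPM in *Sirt2*-/- CD4+ TILs, against 110.0 to 227 and 145 to 317 CPM in CD8+ TILs. A list of 8 NK cell genes summed to 10.1 to 86.9 CPM in CD4+ and 106 to 221 CPM in CD8+ libraries. Most of this, on average, was *Klrk1*, which activated CD8+ T cells also express. *Ncr1*, a defining NK gene, averaged 0.671 CPM in WT CD8+ and 0.939 CPM in WT CD4+ TILs. Of the 7 NK cell genes tested in WT, 5 were fitted higher in CD8+ TILs and 0 were called. In *Sirt2*-/- 4 of 6 were fitted higher and 0 were called. Over all genes 48.6% in WT and 58.4% in *Sirt2*-/- were fitted higher. In WT without the libraries with few genes, *Klrk1* (log2 fold change 2.38, SE 0.15) and *Fcer1g* (2.24, SE 0.32) were called higher. In *Sirt2*-/- without CD4+ replicate 4, *Klrk1* was called higher (2.20, SE 0.34, edgeR adjusted p = 0.0029) and *Fcer1g* was not (1.32, SE 0.59). The part of these cells in the granzyme levels was not tested.

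*Gzma* and *Gzmk*, the neighbors on chromosome 13, encode the granzymes that cut after basic residues. *Gzma* had 19.7, 12.9, 13.3 and 10.1 CPM in WT CD8+ and 0, 1.83, 0.624 and 4.30 CPM in WT CD4+ replicates. Every CD8+ library was above every CD4+ library, and the difference did not pass (log2 fold change 2.96, SE 1.03, edgeR adjusted p = 0.091) until WT CD4+ replicate 1 was left out (2.63, adjusted p = 0.0098), and it passed also with DESeq2 (0.0064) and limma-voom (4.3e-04). In *Sirt2*-/- mice the CD4+ replicates had 0.618, 3.90, 9.64 and 44.7 CPM and the CD8+ replicates 15.8, 17.7, 15.6 and 57.1 CPM, so that replicate 4 was the highest of its group in both cell types and the groups overlapped. *Gzmk* had 67.5, 108, 53.7 and 65.8 CPM in WT CD8+ and 0.0333, 59.4, 27.3 and 17.97 CPM in WT CD4+ replicates, which overlapped. Its log2 fold change was 1.40 (SE 0.95, edgeR adjusted p = 0.42), and 1.11 (SE 0.38, adjusted p = 0.053) without the libraries with few genes. *Gzmk* of *Sirt2*-/- mice had 89.9, 92.3, 101 and 67.03 CPM in CD8+ and 32.5, 22.1, 23.04 and 0 CPM in CD4+ replicates, with no overlap. There it was called only without *Sirt2*-/- CD4+ replicate 4 (1.73, SE 0.18, edgeR adjusted p = 1.1e-04, against 0.67 with it) or with limma-voom (1.9e-04).

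*Gzmm*, a granzyme that cuts after methionine or leucine and is best known from NK cells, was low everywhere and was the 1 tested gene of the 10 that was nominally lower in WT CD8+ TILs. It had 3.57, 4.47, 4.65 and 5.67 CPM in WT CD8+ and 14.5, 1.96, 2.63 and 2.72 CPM in WT CD4+ replicates, so that its sign (log2 fold change −0.29, SE 0.70) rested on replicate 1. Without the libraries with few genes it was 1.01 (SE 0.34, edgeR adjusted p = 0.049), and it was also positive with limma-voom and with the replicate block.

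Counted over the 10 genes, all libraries of CD8+ TILs were above all of CD4+ TILs for 5 in WT (*Gzma*, *Gzmd*, *Gzmf*, *Prf1* and *Nkg7*) and for 6 in *Sirt2*-/- mice (*Gzmd*, *Gzme*, *Gzmf*, *Gzmk*, *Prf1* and *Nkg7*), and below for 0. Over all genes tested, 12.6% in WT and 16% in *Sirt2*-/- were so placed above and 10% and 6.22% below. These shares cover genes that passed the filter, whereas the counts take in *Gzme*, which did not pass it in either genotype. Without the libraries with few genes, 7 of the 10 were called higher in WT (*Gzma*, *Gzmb*, *Gzmd*, *Gzmf*, *Gzmm*, *Prf1* and *Nkg7*), where 14.9% of all genes were called higher and 13.1% lower, and 5 in *Sirt2*-/- (*Gzme*, *Gzmf*, *Gzmk*, *Prf1* and *Nkg7*), where 13.8% and 11.6% were. The WT counts of 5 and 7 hold *Gzmd* and *Gzmf*, which passed the filter through their CD8+ libraries alone. The *Sirt2*-/- counts of 6 and 5 hold *Gzme*, whose CD4+ libraries were all at 0. All of these counts describe the list and support nothing beyond each gene. WT and *Sirt2*-/- were compared apart, with no libraries in common.

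**Figure D2:**
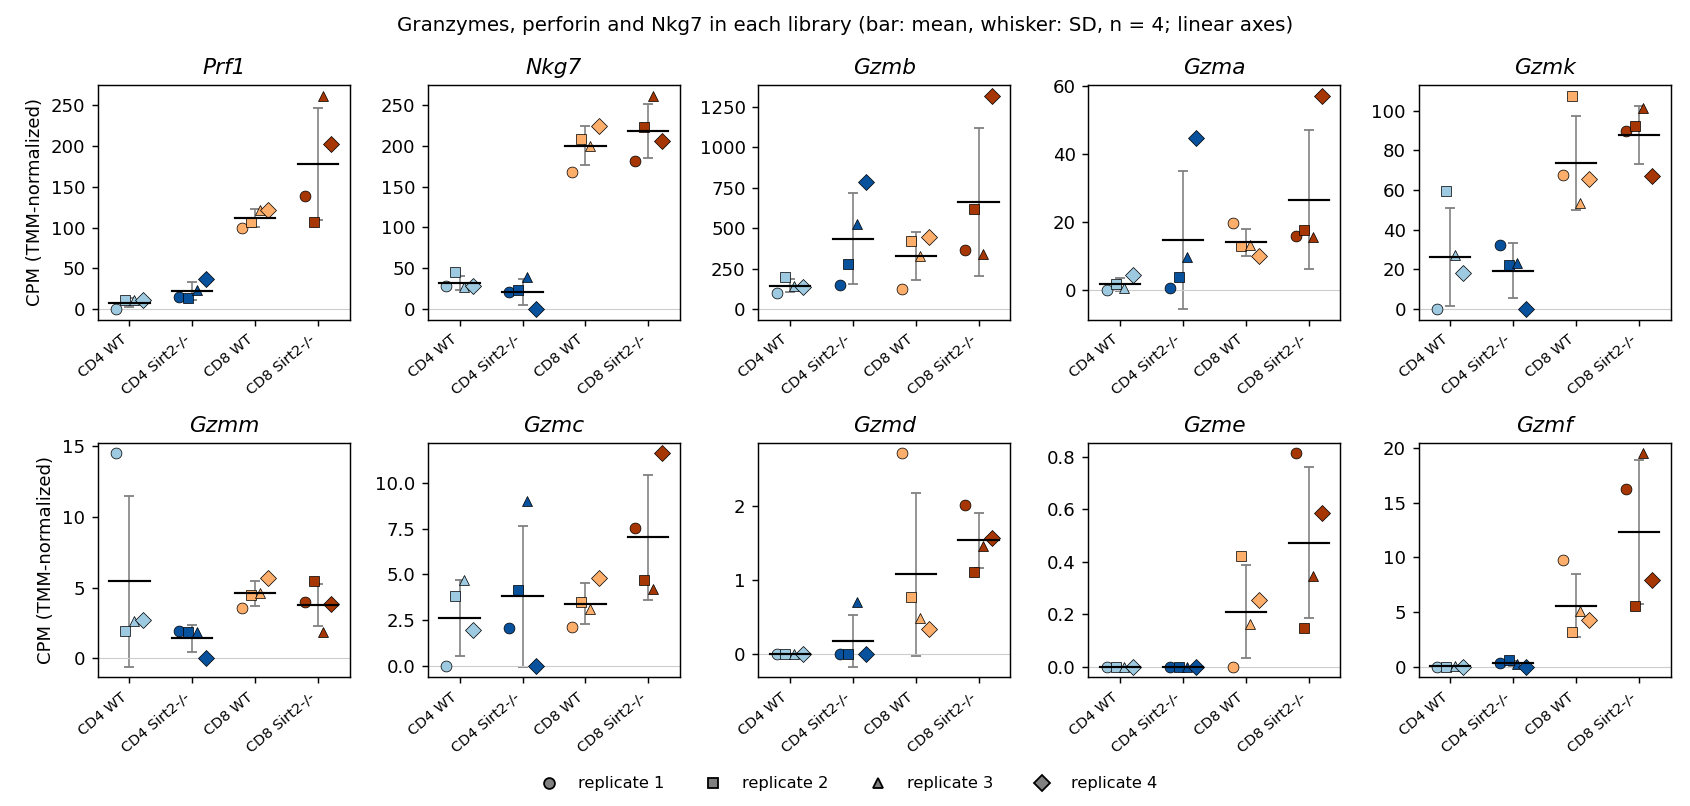
CPM after TMM scaling (y axes, linear, each panel on its own scale) of the 10 genes in the 4 groups (x axis); each point is a library, its shape the replicate number, the bar the mean and the whisker the SD over 4 libraries. *Prf1* and *Nkg7* separate CD8+ (orange) from CD4+ (blue) libraries in both genotypes, whereas *Gzmb* overlaps, and the diamonds of replicate 4 are the highest points of *Gzmb* and *Gzma* in both *Sirt2*-/- groups.

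**Figure D3:**
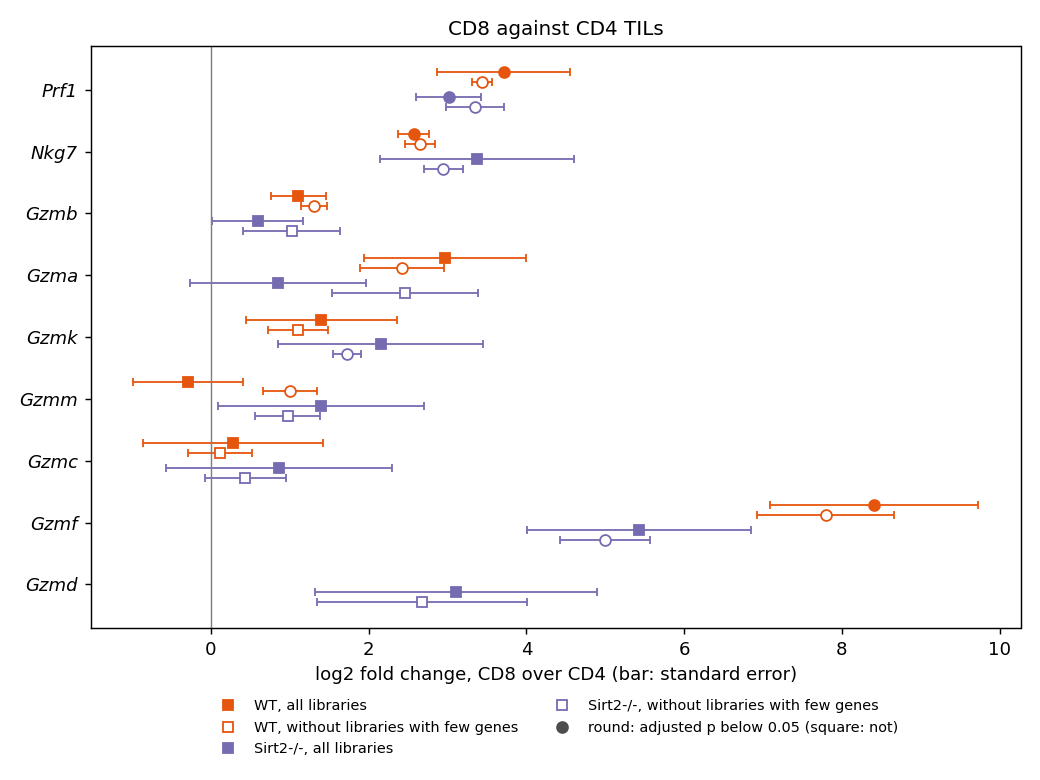
Log2 fold change of CD8+ over CD4+ TILs (x axis, bars are standard errors from edgeR) for 9 of the 10 genes (y axis) in WT and *Sirt2*-/- mice, with all libraries (filled) and without those in which under 15000 genes had a count (open); round symbols passed an adjusted p below 0.05. *Gzmd* is not drawn for WT and *Gzme* not at all, since their CD4+ libraries were at 0.

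The contrast of *Sirt2*-/- with WT TILs asks whether loss of SIRT2 goes with a change of the granule genes within a cell type. In CD8+ TILs 0 of the 10 genes were called by edgeR, DESeq2 or limma-voom. Of the 10, 9 had higher fitted levels in *Sirt2*-/- libraries, as had 51.9% of all genes tested. All 10 passed the filter, their median log2 fold change was 0.80 against 0.01 over 15302 genes, and *Gzma*, *Gzmc*, *Gzmf* and *Prf1* had an unadjusted p below 0.05. Over all genes 2.18% were higher and 1.60% lower at that unadjusted level, and 0% were called higher and 0.00654% lower after adjustment, the latter being *Sirt2* itself. For all 10 genes the libraries of the genotypes overlapped, where 1.74% of all genes had all *Sirt2*-/- libraries above all WT libraries and 1.22% below.

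The genes with the lowest unadjusted p in CD8+ TILs were *Prf1*, *Gzmc* and *Gzmf*. *Prf1*, listed above by library, averaged 178 ± 68.9 CPM (SD, n = 4) in *Sirt2*-/- and 112 ± 11.02 CPM in WT, a log2 fold change of 0.66 (SE 0.23, edgeR unadjusted p = 0.015, adjusted p = 0.99). *Sirt2*-/- replicates 1, 3 and 4 were above every WT library, and replicate 2 was within the WT range. *Gzmc* had 7.52, 4.71, 4.21 and 11.6 CPM in *Sirt2*-/- CD8+ replicates against the WT values given above (log2 fold change 1.05, SE 0.40, unadjusted p = 0.023), and *Gzmf* had 16.2, 5.58, 19.5 and 7.93 CPM (log2 fold change 1.14, SE 0.45, unadjusted p = 0.027), both with an edgeR adjusted p of 0.99. In each, 2 of the 4 *Sirt2*-/- libraries were above all WT libraries.

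Granzyme B and granzyme A leaned on *Sirt2*-/- replicate 4. *Gzmb* averaged 661 ± 457 CPM (SD, n = 4) in *Sirt2*-/- and 329 ± 148 CPM in WT CD8+ TILs (log2 fold change 1.01, SE 0.47, edgeR unadjusted p = 0.057), and without *Sirt2*-/- CD8+ replicate 4 the log2 fold change was 0.42. For *Gzma* it was 0.93 (SE 0.42, unadjusted p = 0.049) and 0.22 without that library. The same library was the highest of its group for summed macrophage genes (32.9 CPM against 7.46 to 14.6), NK cell genes (221 against 106 to 161), regulatory T cell genes (317 against 145 to 201) and gamma delta T cell genes (38.7 against 19.99 to 25.7). It was also the highest for melanocyte (11.5 against 3.08 to 6.34), neutrophil and CD4 T cell genes. For T cell genes (1501 against 1719 to 1997), B cell genes (2.09 against 2.43 to 4.37) and mast cell and basophil genes it was the lowest. The part of any of these cells in the values of *Gzmb* and *Gzma* was not tested. *Nkg7* (0.12, SE 0.13) and *Gzmk* (0.25, SE 0.20) had the smallest differences with small errors, *Gzmd* (0.51, SE 0.72) and *Gzme* (1.16, SE 1.07) had errors near the size of the difference or above it, and *Gzmm* was the 1 gene fitted lower (−0.28, SE 0.37). Without WT CD8+ replicate 1 the fitted difference was 1.53 (SE 0.51) for *Gzmd* and 1.57 (SE 0.43) for *Gzmf*, still not called (edgeR adjusted p = 1.0 and 0.99). In that fit 0 of the 10 genes were called, where 0.0125% of all genes were called higher and 0.0314% lower. WT CD8+ replicate 1 also held the lowest *Gzmb* of its group (122 CPM, against 326 to 447 CPM in the others). Without 1 library each, the log2 fold change of *Gzmb* ranged from 0.42 to 1.23.

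In CD4+ TILs 7 of the 10 genes passed the filter and 0 were called by edgeR, DESeq2 or limma-voom, as were 0% of the 15070 genes tested with edgeR. *Gzmb* was the gene of the 10 nearest to a call. Its *Sirt2*-/- libraries, listed above, averaged 435 ± 281 CPM (SD, n = 4) and the WT libraries 144 ± 41.4 CPM, with 3 of the 4 *Sirt2*-/- libraries above every WT library. The log2 fold change was 1.58 (SE 0.45, edgeR unadjusted p = 0.0059, rank 13 of all genes tested, adjusted p = 1.0), and it was the 1 gene of the 7 with an unadjusted p below 0.05, where 0.995% of all genes were higher and 0.265% lower at that level. Without the libraries with few genes, replicate 4 of *Sirt2*-/- and replicate 1 of WT, it was 0.99 (SE 0.40), and 0 of the 10 genes were called, where 0.0249% of all genes were called higher and 0.0125% lower. *Prf1* was the 1 gene of the 10 whose CD4+ libraries did not overlap between genotypes, against 1.31% of all genes above and 1.82% below. Its log2 fold change of 1.44 had an SE of 1.33, with WT replicate 1 at 0, and was 0.67 (SE 0.25, unadjusted p = 0.020, edgeR adjusted p = 0.98) without the libraries with few genes. *Cd8a* and *Cd8b1* together were also higher in *Sirt2*-/- CD4+ replicates 3 and 4 (60.1 and 74.9 CPM) than in the other 6 CD4+ libraries (14.04 to 25.8 CPM), and the gamma delta T cell genes *Trdc*, *Tcrg-C1* and *Sox13* summed to 39.6 to 57.5 CPM in *Sirt2*-/- against 1.26 to 19.97 CPM in WT CD4+ libraries, also without overlap. The part of either in the values of *Prf1* and *Gzmb* was not tested.

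*Sirt2*-/- CD4+ replicate 4 was uneven within the family. It held the highest *Gzmb* (785 CPM), *Gzma* (44.7 CPM) and *Prf1* (36.8 CPM) of the 8 CD4+ libraries, but 0 counts of *Gzmc*, *Gzmd*, *Gzme*, *Gzmf*, *Gzmk* and *Gzmm* and 1 count of *Nkg7*. A count of 0 in that library allows up to 0.0537 CPM by counting error only. Only 8169 genes were detected there, and *Sirt2* and *Cd40lg* were also at 0, so this is no bound on the level in the cells. In the other 3 *Sirt2*-/- CD4+ libraries *Nkg7* had 20.6 to 39.3 CPM and *Gzmk* 22.1 to 32.5 CPM. The remaining fitted differences between genotypes in CD4+ TILs were 3.10 (SE 1.75) for *Gzma*, 0.53 (SE 1.85) for *Gzmc*, −0.42 (SE 1.75) for *Gzmk*, −1.92 (SE 1.55) for *Gzmm* and −0.61 (SE 1.18) for *Nkg7* on the log2 scale. All moved toward 0 or stayed within 0.02 of their value without the libraries with few genes, *Gzma* to 1.07 (SE 0.87) and *Gzmm* to −0.37 (SE 0.50). *Gzmf*, not tested in CD4+ TILs, had 49 counts over the *Sirt2*-/- libraries against 2 over the WT libraries, a ratio of 20.6 (95% exact binomial interval 5.40 to 175, counting error only).

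Whether the genotype acted differently in the cell types was tested as a difference of differences over all 16 libraries. All 10 genes passed the filter there and 0 were called in either direction by edgeR, DESeq2 or limma-voom, as were 0% of 17270 genes. *Gzme* was at 0 in every CD4+ library, so its genotype effect in CD4+ TILs could not be fitted (edgeR SE 1491). Its outcome was fixed in advance and says nothing. The difference of the genotype effect (CD8+ minus CD4+, log2) was −0.58 (SE 0.74) for *Gzmb*, −0.79 (SE 1.11) for *Prf1* and 0.75 (SE 1.19) for *Nkg7*. *Gzmd* was the 1 gene with an unadjusted p below 0.05 (edgeR unadjusted p = 0.042, adjusted p = 1.0), where 0.944% of all genes were higher and 1.04% lower at that level, and its value rests on 1 CD4+ library with counts.

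**Figure D4:**
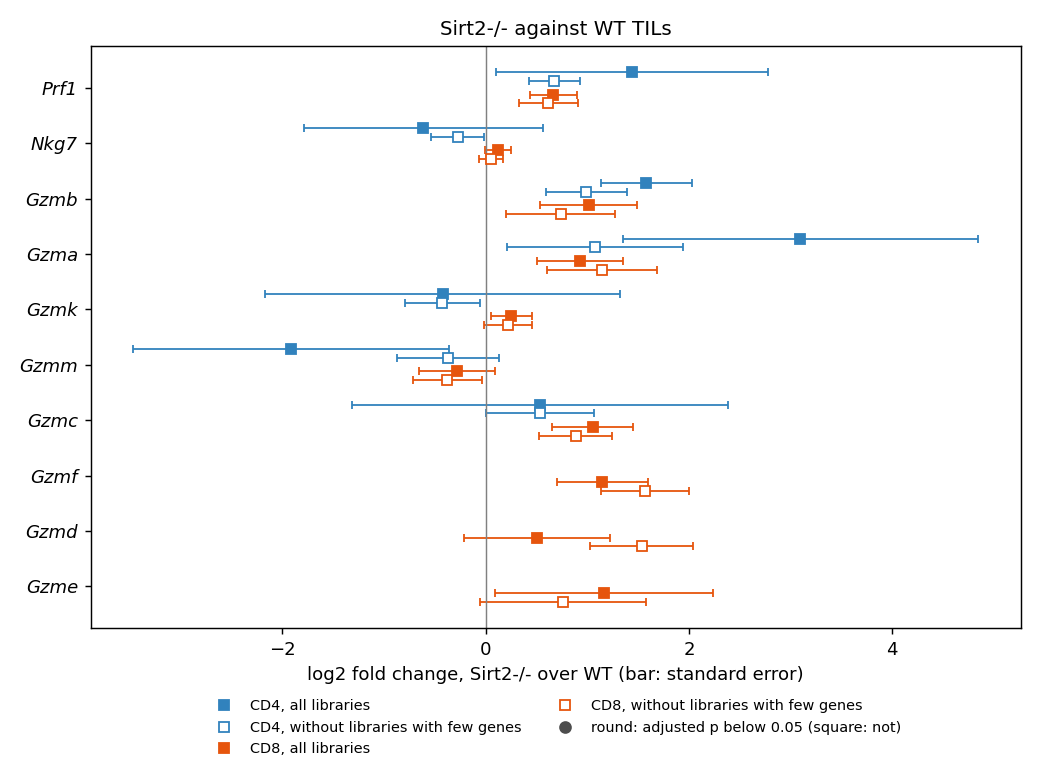
Log2 fold change of *Sirt2*-/- over WT (x axis, bars are standard errors from edgeR) for the 10 genes (y axis) in CD4+ (blue) and CD8+ (orange) TILs, with all libraries (filled) and without those in which under 15000 genes had a count (open). All symbols are square, since no gene passed an adjusted p below 0.05, and the CD4+ bars of *Gzma*, *Gzmk*, *Gzmm* and *Gzmc* are narrower without the libraries with few genes.

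The genes that load, release, restrain and switch on granzymes were read from 7 lists of 47 genes, of which 44 were tested between the cell types. In WT mice 14 of the 44 were called higher and 4 lower in CD8+ TILs, where 4.89% of all genes were called higher and 6.96% lower, which is also the background of the counts by list. Of 10 genes for granule storage and granzyme maturation, 5 were higher and 1 lower, among them *Cst7* (log2 fold change 1.99, SE 0.20), which encodes cystatin F, an inhibitor of the cathepsins that activate granzymes, *Ctsw* (1.91, SE 0.16), for cathepsin W, and *Gnptab* (1.49, SE 0.22), which makes the mannose 6-phosphate tag that sorts granzymes to granules. *Srgn*, for the proteoglycan serglycin on which granzymes are stored, was lower (−0.62, SE 0.16). Of 7 transcription factors 4 were higher and 1 lower. *Eomes*, a T-box factor of cytotoxic cells, had the largest of these differences (3.48, SE 0.28), followed by *Id2* (1.23, SE 0.16) and *Tbx21*, for T-bet (0.96, SE 0.24), while *Prdm1*, for the repressor Blimp-1, was lower (−1.44, SE 0.25). All values are edgeR log2 fold changes of CD8+ over CD4+, with adjusted p from 3.9e-05 for *Eomes* to 0.028 for *Srgn*.

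Of 5 death ligands and cytokines, *Ifng* (1.78, SE 0.47) and *Fasl* (1.63, SE 0.40), the ligand of the other killing pathway of T cells, were higher and none was lower. Of 8 tested genes of granule exocytosis, *Lyst*, a lysosomal trafficking gene, was higher (0.96, SE 0.22) and *Stx11*, a syntaxin of granule fusion, was lower (−1.05, SE 0.20). Of the 5 serpins listed, *Serpinb9*, which blocks granzyme B, was higher (1.16, SE 0.30) and *Serpinb6a* was lower (−0.91, SE 0.26). Without the libraries with few genes *Serpinb6a* was no longer called (−0.44, SE 0.18, edgeR adjusted p = 0.099), and *Serpinb1a*, named after its values were seen, was called lower (−4.09, SE 0.87, adjusted p = 0.0054). Of 9 granzyme substrates, *Set*, of the complex cut by granzyme A, was higher (0.94, SE 0.15). Without the libraries with few genes 19 of 44 were called higher and 5 lower in WT, against 14.9% and 13.1% of all genes, so that the count of lower genes was near the general share.

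In *Sirt2*-/- mice 5 of 44 were called higher in CD8+ TILs and 0 lower, against 0.918% and 1.32% of all genes. They were *Eomes* (3.58, SE 0.41), *Fasl* (1.53, SE 0.27), *Id2* (1.45, SE 0.24), *Igf2r*, a mannose 6-phosphate receptor (1.35, SE 0.26), and *Runx3* (0.68, SE 0.13). Without *Sirt2*-/- CD4+ replicate 4 the counts were 18 higher and 4 lower, against 13.8% and 11.6% of all genes, with the lower count again near the general share. Between genotypes 0 of 44 were called in CD8+ and 0 of 43 in CD4+ TILs, with 2 and 0 at an unadjusted p below 0.05. At that level 2.18% of all genes were higher and 1.60% lower in CD8+ TILs, and 0.995% and 0.265% in CD4+ TILs. The median log2 fold change of the list was 0.12 in CD8+ and −0.09 in CD4+ TILs, against 0.01 and −0.11 over all genes.

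**Figure D5:**
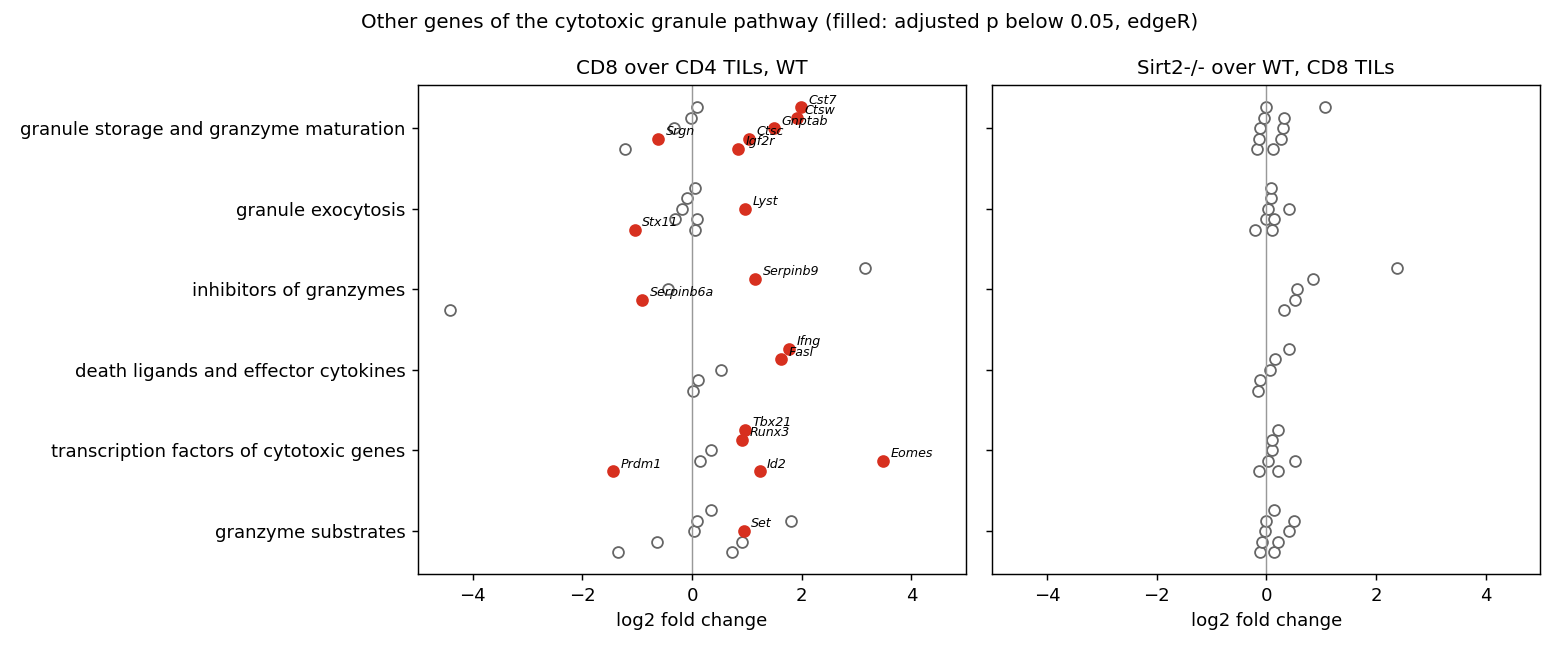
Log2 fold change from edgeR (x axis, the same scale in both panels) of the other genes of the cytotoxic granule pathway by list (rows) for CD8+ over CD4+ TILs in WT mice (left) and *Sirt2*-/- over WT in CD8+ TILs (right); filled and named points passed an adjusted p below 0.05. The left panel has 14 named points above 0 and 4 below, and the right panel has none.

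Over the 16 libraries, the genes whose log2 CPM followed each of the 10 most closely were found by Pearson's r against 17269 other genes, as a description. The libraries share cell type and, for 3 of them, few detected genes, and both enter r. For *Nkg7* the closest was *Cst7* (r = 0.99), for *Prf1* *Lrrk1* (0.98) and then *Klrk1* (0.98), the activating receptor NKG2D, and for *Gzmf* *Gm156* (0.98). *Gzmb* was least closely followed, by *Arl6ip5* (0.89), *Eif2ak2* (0.88) and *Mlkl* (0.88), the executor of necroptosis. *Gzmk* was followed by *Rad51c* (0.99) and *Gzmc* by *Ctsl* (0.98), for cathepsin L. Within the family r was 0.89 for *Gzmd* with *Gzmf*, 0.89 for *Gzma* with *Prf1* and 0.76 for *Gzma* with *Gzmb*, and −0.02 for *Gzmb* with *Nkg7*.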

How the data were processed

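Total RNA of CD4+ and CD8+ TILs was sequenced by the authors from 1 ng per library with a stranded kit that removes ribosomal RNA. For the 16 libraries the authors deposited raw read counts by gene, as whole numbers and not normalized. The submitters' processing notes name STAR, HTSeq and the build mm10, with no versions. Strand setting and treatment of reads that fit several genes are not given in the sources used here. Gene identifiers and positions are those of GENCODE mouse release M21. Groups were taken from the labels, and no library was left out of the main results.

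The fits used edgeR 4.0.16 under R 4.3.3 (scaling by TMM, filterByExpr, robust quasi-likelihood fit, two-sided test, Benjamini–Hochberg adjustment over all genes tested, threshold 0.05). Each comparison used its 2 groups, and the difference of the genotype effect used all 16 libraries. CPM used library sizes scaled by TMM over all libraries, and CPM per kilobase divided by the summed length of all exons of a gene. Correlations used log2 CPM with a prior count of 2. Alternatives were DESeq2 1.42.0, limma-voom of limma 3.58.1 with sample quality weights, DESeq2 size factors, no filter, a joint model of all 16 libraries, a block on the replicate number, and leaving out each library or the 3 libraries with under 15000 genes detected. The counts of the other pathway genes without these libraries were added after seeing the data.

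All 10 genes were named. Per list and comparison at most 3 called genes a direction with the largest change were named, and per gene of the 10 the closest 3 by r were considered. The 10 genes and the lists were chosen with earlier results of these data known, so no count over them is independent support. Of the 47 listed pathway genes, *Vamp7* was not matched in the table. Promoter windows are from RefSeq (GRCm38.p6), and coding sequences from GENCODE transcripts. Floors of 3 counts and the exact (Clopper–Pearson) intervals cover counting error only, since PCR copies could not be told from separate molecules. The functions were checked on simulated counts with known changes.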

Additional observations from a re-analysis of the deposited data

Results flagged for a closer look

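Of 37 sets of 4 libraries (a gene of the 10 in a group, with at least 1 value above 0), 7 had a library far from the other 3 by Dixon's test. In 2 of the 7, *Gzmd* in *Sirt2*-/- and *Gzmf* in WT CD4+ TILs, 3 libraries were at 0, which fixes the outcome. Of the other 35 sets 5 were so marked. Among independent sets of normally distributed values about 1 in 20, or 1.75, would be. The sets here share libraries, so 5 against 1.75 is not a test.

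In CD8+ TILs, *Gzma* in *Sirt2*-/- replicate 4 was at 57.1 CPM, with the next highest library at 17.7 CPM. In CD4+ TILs, *Gzmm* in WT replicate 1 was at 14.5 CPM, with the next at 2.72 CPM, and *Prf1* in that same library was at 0, with the next lowest at 10.6 CPM. *Gzmm* in *Sirt2*-/- CD4+ replicate 4 was at 0, with the next lowest at 1.83 CPM. These last 3 values are from the 2 CD4+ libraries with few genes detected. *Nkg7* in WT CD4+ replicate 2 was at 44.8 CPM, with the next highest at 28.3 CPM, and that library had the highest Y-linked level of the CD4+ libraries (297 CPM). *Gzmd* in *Sirt2*-/- CD4+ replicate 3 was at 0.700 CPM (31 counts) and *Gzmf* in WT CD4+ replicate 3 at 0.0446 CPM (2 counts), where the other 3 libraries of the group had 0. WT CD4+ replicate 1 also had 84.2 CPM of summed melanocyte genes, against 2.01 to 6.15 CPM in the other WT CD4+ libraries, and 12.5 CPM of B cell genes, against 2.21 to 3.30 CPM. *Sirt2*-/- CD4+ replicate 4 had 27.5 CPM of melanocyte genes, against 4.90 to 7.75 CPM in its group. The part of these cells in the values was not tested.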

How the results depend on the processing

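The count of genes called higher in WT CD8+ TILs, 4 of 10, was 3 to 6 with another tool, scaling, filter, model or block, 7 without the libraries with few genes detected, and 2 to 5 without 1 library each, with 2 without WT CD8+ replicate 4. In *Sirt2*-/- mice the count of 1 became 2 with DESeq2, 6 with limma-voom, 3 with all 16 libraries in 1 model and 5 without the libraries with few genes, and ranged from 1 to 5 without 1 library each, with 5 without *Sirt2*-/- CD4+ replicate 4. The counts for genotype and for the difference of the genotype effect were 0 in every alternative run, as were all counts of genes called lower.

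Signs turned for genes of the 10 that were not called. In WT, CD8+ over CD4+, *Gzmc* was at −0.0074 with limma-voom and ranged from −0.047 (without WT CD4+ replicate 1) to 0.74 without 1 library each, and *Gzmm* at 0.90 with limma-voom, 0.27 with the replicate block, 1.01 without the libraries with few genes and from −0.56 to 0.91 without 1 library each, the latter without WT CD4+ replicate 1 (log2). In CD4+ TILs, *Sirt2*-/- over WT, leaving out 1 library moved *Gzmc* from −0.34 (without *Sirt2*-/- replicate 3) to 0.99 and *Gzmk* from −0.84 to 0.36 (without WT replicate 2). In the difference of the genotype effect, *Gzmm* was at −0.083 under limma-voom and at −0.0048 once the 3 libraries with few genes were out, *Gzma* at 0.064 in that last fit, and without 1 library each *Gzmd* ranged from −5.80 to 0.51 (without *Sirt2*-/- CD4+ replicate 3; its CD4+ WT libraries are at 0, so the fitted size is no bound) and *Gzmk* from −0.11 (without WT CD4+ replicate 2) to 1.10. The cause was not tested.

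Replicate numbers are shared by the groups, but no source says that they mark an animal. For that reason no pairs were used in the main fits. Libraries of the same number correlated in their deviations at 0.067 to 0.12 between cell types in WT, −0.014 to 0.13 in *Sirt2*-/-, and −0.072 to 0.077 between genotypes. In WT every library correlated best with its own number. The Y-linked sums of WT CD4+ and CD8+ TILs were also alike in replicate 1 (59.0 and 57.9 CPM) and replicate 2 (297 and 271 CPM). Both are hints of shared animals in WT from the data and not the design, and pairing was not settled. The replicate block took the count in WT CD8+ TILs from 4 to 3, with *Prf1* and *Gzmd* no longer called and *Gzmb* called, and changed no other count.

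Precision was limited by 4 libraries a group and by the 3 libraries with few genes, and for *Gzmd* and *Gzme* by counts of at most 99 and 40 in any library.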
